A study of Mus musculus with 12 samples.

Results

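Angptl4 and the genes that act with it on lipoprotein lipase were followed in the mouse heart. The set was named by gene and holds Angptl4, Angptl2, Lpl, Gpihbp1, Lmf1, Lmf2, Vldlr and Lrp1, which are 8 of the 27248 gene names on the array. All 8 had probes, 19 in number, and 17 of these had enough signal to be tested, among them at least 1 for every gene. The set was chosen by its link to Angptl4, and Angptl4 by its difference between diabetic and non-diabetic hearts in these same data, so that the diabetes values of Angptl4 are given below as a description, without a test.

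The hearts came from 12 male C57BL6/J mice aged 5 months, with 3 mice and 1 array per mouse in each of 4 groups. Control mice (C) and control mice given pargyline (C + P) did not receive streptozotocin. Diabetic mice (D) and diabetic mice given pargyline (D + P) were injected with 50 mg/kg of streptozotocin, a poison of the insulin-producing cells, on each of 5 days, and counted as diabetic from a blood glucose of 17 mM upwards. C + P and D + P mice received a daily dose of 50 mg/kg of pargyline, a blocker of monoamine oxidase (MAO), over 12 weeks. The study describes mice not given pargyline as receiving vehicle. No group carried a transgene. Hearts were analysed as bulk muscle, so that fewer cells of a type and less RNA per cell cannot be told apart. The comparisons ask how diabetes alters these transcripts and whether MAO inhibition alters them with or without diabetes.

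The heart draws much of its fuel from fatty acids that lipoprotein lipase, the product of Lpl, releases from triglyceride in circulating lipoproteins. The enzyme is made in muscle cells, folded with the help of Lmf1, and carried by Gpihbp1 to the inner face of the capillary. Angptl4 is secreted and inactivates the enzyme, and it is a classical target of the fatty acid sensing PPAR receptors. Vldlr and Lrp1 are endocytic receptors of the LDL receptor family that take up lipoprotein particles.

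A single probe reported Angptl4, at base 1808 of the RefSeq transcript, and its first 30 bases are printed because all Angptl4 values rest on it. It lies at chr17:33911880-33911939 on the minus strand of mm9. The Lpl probes are printed because they did not behave alike. Probes 1 to 3 (chr8:71405538-71405597, chr8:71408343-71408402 and chr8:71413311-71413370, plus strand) were designed on cDNA clones or Ensembl transcripts only. Probes 4 and 5 (chr8:71419652-71419711 and chr8:71425050-71425109, plus strand) lie at bases 830 and 1340 of the RefSeq transcript.
Angptl4 probe 1: atggtgctgttgtaggtgctgtggatgcac
Lpl probe 1: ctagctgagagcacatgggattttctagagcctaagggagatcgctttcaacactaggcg
Lpl probe 2: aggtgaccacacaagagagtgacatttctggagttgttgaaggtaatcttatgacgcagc
Lpl probe 3: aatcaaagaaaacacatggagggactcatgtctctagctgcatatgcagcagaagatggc
Lpl probe 4: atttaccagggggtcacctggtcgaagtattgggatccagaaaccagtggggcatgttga
Lpl probe 5: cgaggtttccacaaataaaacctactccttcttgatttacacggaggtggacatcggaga
G and C made up 50.0%, 45.0% and 45.0% of probes 1 to 3 and 51.7% and 45.0% of probes 4 and 5. Which exon or intron holds a probe is not given in the sources used here.

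All values are log2 signal after quantile normalisation, and each gene is reported by its brightest tested probe. Levels of different probes are not comparable with each other. Between 23556 and 29231 of 59305 spots per array were well above background, with the fewest on D replicate 1, and no spot was saturated. The 6 cardiomyocyte marker genes, among them Myh6 and Mb, were well above background on all 12 arrays, whereas 5 of 7 adipocyte markers (Plin1, Adipoq, Cidec, Retn and Pck1) were so on none. C and D lay on one slide and C + P and D + P on the other, so that pargyline and slide cannot be told apart. Non-diabetic hearts occupied the upper row of each slide and diabetic hearts the lower row, so that diabetes and row cannot be told apart either.

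Angptl4 was higher in every diabetic heart than in every non-diabetic heart. Its log2 signal was 9.04, 9.94 and 9.11 in C and 7.97, 9.63 and 8.03 in C + P. In D it was 11.51, 11.62 and 11.48, and in D + P it was 11.48, 12.17 and 12.40. Replicate 2 of both non-diabetic groups stood above its companions, yet remained below the lowest diabetic heart. From lowest to highest, the group means were those of C + P (8.54 ± 0.94), C (9.36 ± 0.50), D (11.54 ± 0.07) and D + P (12.01 ± 0.48) (SD, n = 3). C + P overlapped with C, and D overlapped with D + P, so that the gap lay between C and D. Of all tested probes, 1.21% lay wholly higher in D than in C and also in D + P than in C + P.

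The difference between D and C amounted to 2.18 ± 0.43 (SE), or 4.52-fold. Under pargyline, D + P exceeded C + P by 3.47 ± 0.43, or 11.1-fold. Averaged over both, the diabetes difference was 2.82 ± 0.30, or 7.07-fold. These contrasts chose the gene and carry no p.

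With pargyline, mean Angptl4 was lower in non-diabetic and higher in diabetic hearts, and neither difference passed the test. In C + P the mean was 0.82 ± 0.43 below C (95% confidence interval -1.77 to 0.14; adjusted p = 1.0 by limma with Benjamini-Hochberg adjustment over all tested probes). In D + P it was 0.48 ± 0.43 above D (interval -0.48 to 1.43; adjusted p = 0.643). The diabetes difference was therefore 1.29 ± 0.61 larger with pargyline than without, which did not pass the threshold (interval -0.05 to 2.64; adjusted p = 0.713). C replicate 2 and C + P replicate 2 weighed most on the first of these values, which lay between -1.36 and -0.53 when single arrays were left out. The second value lay between 0.29, without D + P replicate 3, and 0.75, without D + P replicate 1, and the interaction between 1.00, without C + P replicate 1, and 1.84, without C + P replicate 2. With the array column on the slide as a block, the second value became 0.12 and the interaction 0.81.

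**Figure D1:**
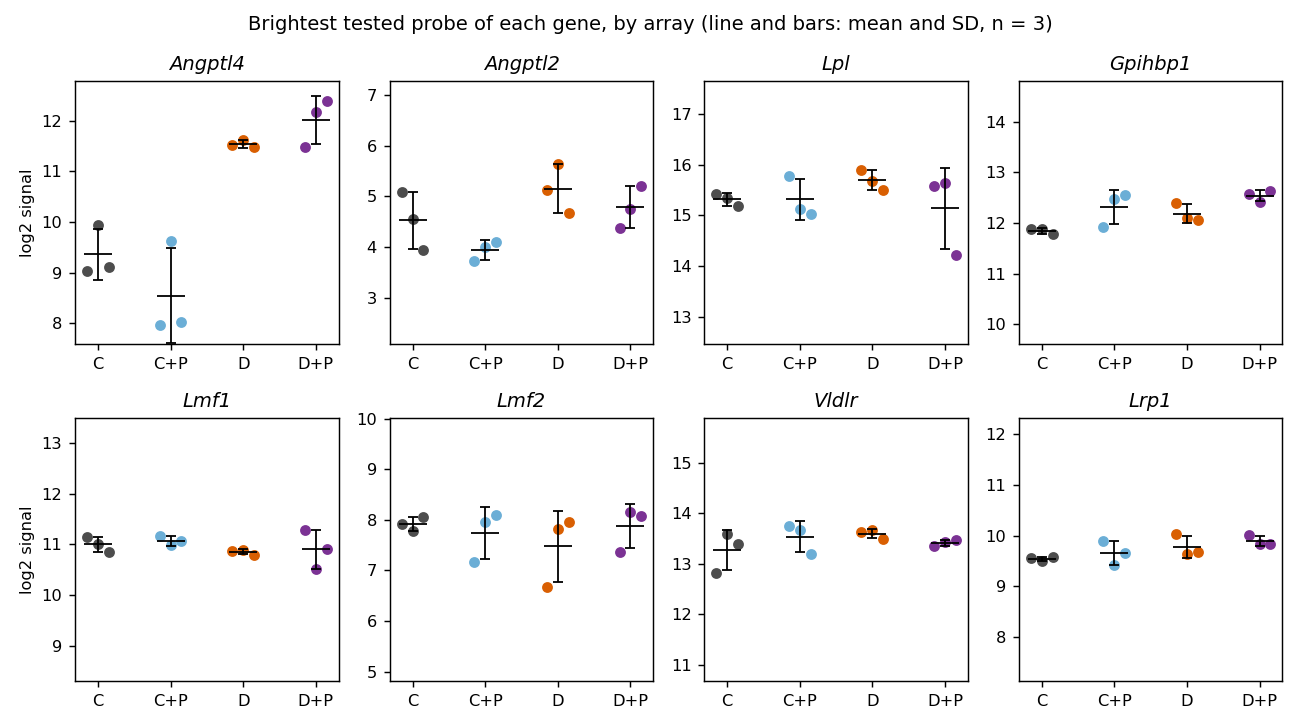
Log2 signal of the brightest tested probe of each gene on the 12 arrays. Points are single hearts, horizontal lines and bars the mean and SD of 3 hearts, and every panel spans the same number of log2 units, so that the step of Angptl4 from C at 9.36 to D at 11.54 can be set against the other genes.

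Of the 7 other genes, none had a probe that passed the adjusted threshold of 0.05 in any of the comparisons. The background was low in all of them. Of all tested probes, 0.00648% passed for D against C, 0.0454% for D + P against C + P and 0.107% for diabetes averaged over pargyline. For C + P against C it was 0.0324% and for the interaction 0.00648%. For D + P against D it was 0%, although 4099 probes, or 13.3%, had an unadjusted p under 0.05. At the brightest probe, the groups D and C did not overlap for Lpl, Gpihbp1 and Lrp1, which were all higher in D, as were 11.9% of all tested probes. D + P lay wholly above C + P for Angptl2, as did 7.3% of all tested probes, but this Angptl2 probe was near background in both groups.

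**Figure D2:**
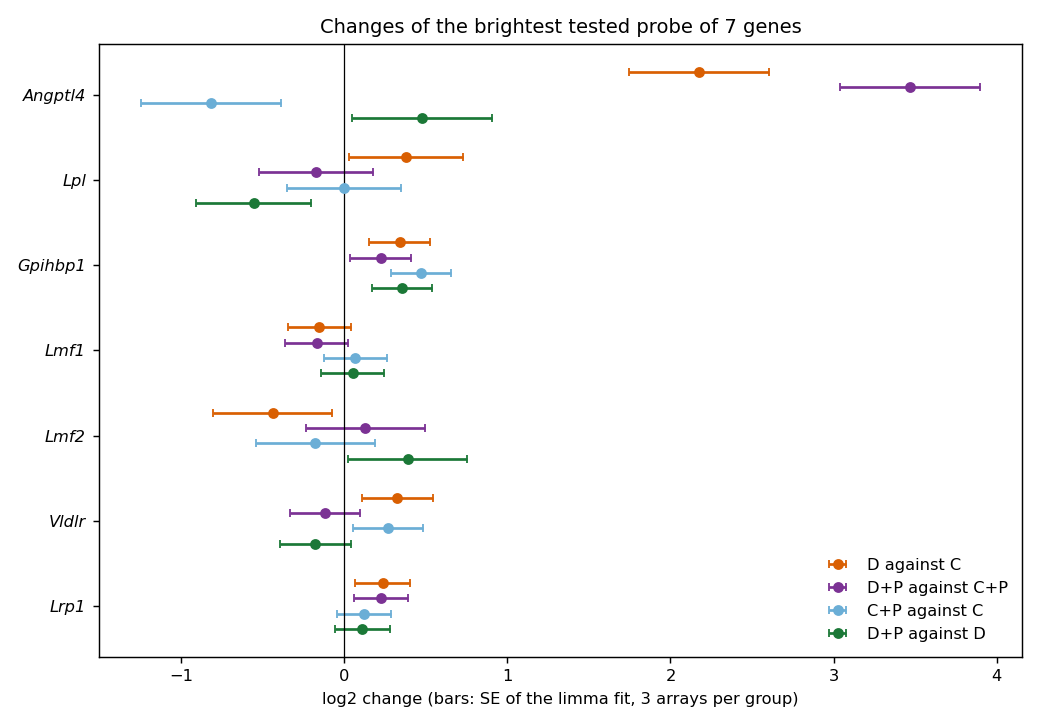
Log2 change of the brightest tested probe of 7 genes, without Angptl2, in the 4 comparisons between pairs of groups, with the SE of the fit as bars. Only the diabetes differences of Angptl4, 2.18 and 3.47, lie far to the right of the remaining values.

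Angptl2, a secreted relative of Angptl4 studied for its part in tissue inflammation, was near the limit of detection. Its brightest probe gave 5.08, 4.54 and 3.95 in C, 3.71, 4.00 and 4.10 in C + P, 5.13, 5.64 and 4.68 in D, and 4.38, 4.75 and 5.21 in D + P. This probe was well above background on 1 array of C, none of C + P, 1 of D and 1 of D + P, so that neither a difference nor a fold is given. The second tested Angptl2 probe was well above background only in 1 heart, D + P replicate 2, at 5.92.

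For Lpl itself, no probe on the RefSeq transcript passed the test in any comparison. The brightest, probe 6 at base 3484 near the end of the transcript, gave 15.43, 15.34 and 15.18 in C and 15.78, 15.13 and 15.03 in C + P. It gave 15.89, 15.68 and 15.51 in D and 15.57, 15.63 and 14.21 in D + P. D replicates lay just above C, and D + P replicate 3 stood below all other hearts. Averaged over pargyline the diabetes difference was 0.10 ± 0.25 (95% confidence interval -0.44 to 0.65; adjusted p = 0.899). It ran from -0.02, without D + P replicate 2, to 0.33, without D + P replicate 3, and its sign differed in 5 of 23 alternatives, so that no direction is given.

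Probe 4 of Lpl ran from 10.26 to 10.65 in C and from 10.65 to 10.91 in D, a difference of 0.39 ± 0.18 (adjusted p = 0.470 by limma). Under pargyline the same probe differed by 0.23 ± 0.18 (adjusted p = 0.807). Probe 5 differed by -0.25 ± 0.22 for D against C and by 0.03 ± 0.22 for D + P against C + P.

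The 3 clone-based probes upstream of these gave another picture. Lpl probe 1 read 10.26, 10.42 and 10.02 in C, 9.85, 9.82 and 10.38 in C + P, 9.04, 9.28 and 8.03 in D, and 9.73, 10.55 and 10.24 in D + P. All D hearts thus lay below all others, and the D + P mean of 10.17 was near the C mean of 10.23. D and D + P lay on different slides. Lpl probe 2 read 10.77, 10.83 and 10.58 in C, 10.01, 10.15 and 10.86 in C + P, 10.52, 9.80 and 8.76 in D, and 10.93, 10.87 and 10.81 in D + P. Lpl probe 3 read 9.54, 10.37 and 10.20 in C, 9.49, 9.97 and 10.34 in C + P, 9.35, 9.16 and 8.69 in D, and 9.79, 10.62 and 10.36 in D + P. In each of them D did not overlap with C or with D + P. Wholly lower values in D than in C occurred for 10.4% of all tested probes, and wholly higher values in D + P than in D for 7.91%.

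For D against C the changes of these probes were -1.45 ± 0.33, -1.03 ± 0.38 and -0.97 ± 0.31, with unadjusted p of 0.00117, 0.0194 and 0.0102. Their adjusted p values by limma were 0.258, 0.396 and 0.349, so that none passed. For D + P against D they were 1.39 ± 0.33, 1.18 ± 0.38 and 1.19 ± 0.31, with adjusted p of 0.176, 0.244 and 0.192. With single arrays left out, D against C ran from -1.69 to -1.07, from -1.45 to -0.56 and from -1.22 to -0.78, and D + P against D from 1.01 to 1.63, from 0.71 to 1.59 and from 1.00 to 1.42. The value nearest 0 was in each case that without D replicate 3. D + P against C + P differed by 0.16, 0.53 and 0.32. The interaction of 1.60, 1.56 and 1.30 had adjusted p values of 0.595, 0.665 and 0.665. If all 6 tested Lpl probes were averaged instead of taking the brightest, the sign for D against C turned to -0.49 and that for D + P against D to 0.56.

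**Figure D3:**
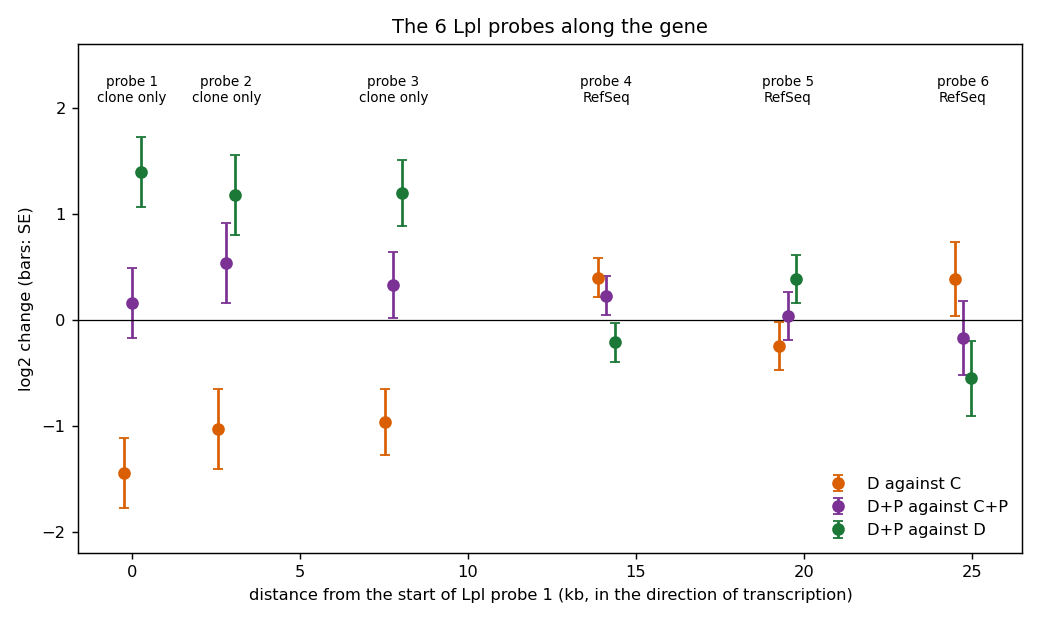
Log2 change with SE of the 6 Lpl probes, placed by their distance in kb from the start of probe 1 along the direction of transcription. For D against C the 3 clone-based probes at the left lie between -1.45 and -0.97, whereas the 3 RefSeq probes at the right lie between -0.25 and 0.39.

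The same contrast between kinds of probe was measured over all genes that have both. In 2799 such genes, the change of the clone-based probes minus that of the RefSeq probes had a median of -0.23 for D against C and was below 0 in 67.1% of genes. For Lpl it was -1.33, and 62 genes (2.22%) lay lower. For D + P against D the median was 0.28 and the value of Lpl was 1.38, with 115 genes (4.11%) above it. On single arrays, the median over all genes relative to C was -0.23 on D replicate 2, -0.45 on D replicate 3 and 0.07 on D replicate 1. The corresponding Lpl values were -1.25, -1.91 and -0.82. C + P replicate 1 also had a low median, of -0.29, and an Lpl value of -0.81. On the remaining C + P and D + P arrays the median lay between -0.02 and 0.09 and the Lpl value between -0.38 and 0.42. The part of this array-wide shift in the Lpl values was not tested.

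**Figure D4:**
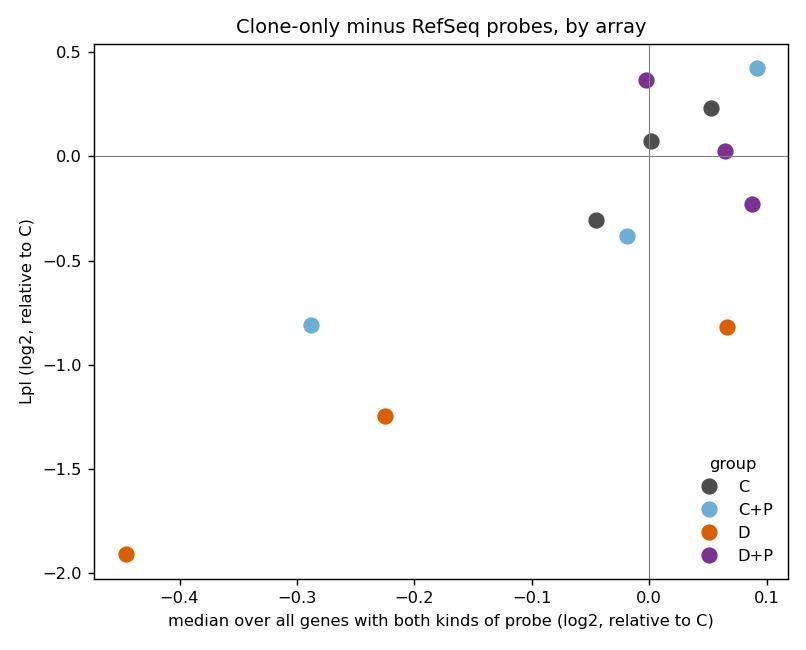
Clone-based minus RefSeq probes on each of the 12 arrays, relative to the mean of C, as the median over 2799 genes (horizontal axis, log2) and for Lpl (vertical axis, log2). The arrays with the lowest medians, D replicate 3 at -0.45, C + P replicate 1 at -0.29 and D replicate 2 at -0.23, also had low Lpl values, and D replicate 1 had an Lpl value of -0.82 at a median of 0.07.

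Gpihbp1, which anchors lipoprotein lipase in the capillary, was lowest in controls without pargyline. Its single probe (chr15:75428484-75428543, plus strand, mm9) gave 11.88, 11.88 and 11.78 in C and 11.93, 12.47 and 12.55 in C + P. It gave 12.40, 12.11 and 12.05 in D and 12.58, 12.41 and 12.63 in D + P. All 9 other hearts thus exceeded the 3 C hearts, and D + P lay just above D. The C + P hearts exceeded C by 0.47 ± 0.19 (unadjusted p = 0.0281, adjusted p = 1.0 by limma), D exceeded C by 0.34 ± 0.19 (adjusted p = 0.516) and D + P exceeded D by 0.35 ± 0.19 (adjusted p = 0.429). Wholly higher values in C + P than in C were found for 7.35% of tested probes. For D against C this share was 11.9% and for D + P against D 7.91%. The share of tested probes with all 9 other hearts above C was not counted. With arrays weighted by their quality, C + P exceeded C by 0.60 and the adjusted p became 0.0418, while the calls over all tested probes went from 10 to 184.

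Gpihbp1 is made by endothelial cells, and the 8 endothelial markers were examined beside it. None passed the threshold in any comparison. For C + P against C their median was -0.01 and for D against C 0.01, each with 4 higher and 4 lower. In D + P all 8 were higher than in D, with a median of 0.26 and a range from 0.08 to 0.75. Of all tested probes, 49.9% were higher in D + P than in D, and these groups lay on different slides. Their summed log2 level ran from 15.0 to 15.2 in C, from 14.7 to 15.3 in C + P, from 14.6 to 15.1 in D and from 15.0 to 15.4 in D + P. Averaged over pargyline, Emcn, Tek and Pecam1 had the largest diabetes differences, of 0.26, 0.22 and 0.18. The part of endothelial content in the Gpihbp1 values was not tested.

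Neither maturation factor passed the test in any comparison. Lmf1, an endoplasmic reticulum protein that lets lipoprotein lipase fold, gave 11.15, 11.001 and 10.85 in C, 11.17, 10.98 and 11.06 in C + P, 10.88, 10.88 and 10.79 in D, and 11.29, 10.51 and 10.90 in D + P. D overlapped with C and D + P with C + P, and the averaged diabetes difference was -0.16 ± 0.14 (adjusted p = 0.686 by limma). The second Lmf1 probe, which is dimmer, was 0.43 ± 0.23 higher in D than in C and 0.41 ± 0.23 lower in D + P than in D, again without passing.

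Lmf2, the paralog of Lmf1, gave 7.92, 7.78 and 8.05 in C, 7.16, 7.96 and 8.10 in C + P, 6.68, 7.81 and 7.95 in D, and 7.37, 8.16 and 8.08 in D + P. The diabetes difference averaged over pargyline was -0.15 ± 0.26 (adjusted p = 0.851 by limma). The low values of 7.16, 6.68 and 7.37 all came from arrays in column 1 of their slide, a column that held no C array. With the array column as a block, D against C changed from -0.44 to -0.16, and the averaged difference became 0.0039.

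Of the receptors, Vldlr, which binds very low density lipoprotein and is abundant in heart, gave 12.82, 13.59 and 13.40 in C and 13.75, 13.67 and 13.19 in C + P. It gave 13.63, 13.66 and 13.50 in D and 13.36, 13.43 and 13.47 in D + P. D + P lay wholly below D, as did 9.1% of all tested probes, and both lay within the range of the non-diabetic hearts. The averaged diabetes difference was 0.10 ± 0.15 (95% confidence interval -0.23 to 0.44; adjusted p = 0.822 by limma), and that of the second Vldlr probe was 0.02 ± 0.17. At the brightest probe it ran from -0.01, without C replicate 1, to 0.19, without C replicate 2, so that no direction is given.

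Lrp1, a large receptor for remnant particles that also binds lipoprotein lipase, gave 9.56, 9.50 and 9.57 in C and 9.90, 9.43 and 9.66 in C + P. It gave 10.03, 9.63 and 9.68 in D and 10.004, 9.84 and 9.83 in D + P. The brightest probe, at base 14472, thus read higher in all D than in all C hearts, by 0.24 ± 0.17. The averaged diabetes difference was 0.23 ± 0.12 (unadjusted p = 0.0780, adjusted p = 0.495 by limma). The clone-based Lrp1 probe 2 was not well above background on any D array. With D values raised to at least the dimmest signal well above background on their array, its mean was 1.08-fold below C. This bound was not tested, and the difference without it did not pass (adjusted p = 0.442 by limma).

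Macrophages also make Lpl and Lrp1, and their 6 markers were all lower in diabetic hearts, with a median of -0.44 averaged over pargyline. Of these, 4 had an unadjusted p under 0.05, as did 5.46% of all tested probes in that direction, and none passed after adjustment. Adgre1, Cd68 and C1qa differed by -0.59, -0.49 and -0.46. The summed macrophage level ran from 14.0 to 14.2 in C, from 14.1 to 14.7 in C + P, from 13.7 to 14.0 in D and from 13.7 to 13.8 in D + P. Cardiomyocyte markers had a median difference of -0.12, with Ryr2 (-0.99), Tnnt2 (-0.31) and Myh6 (0.16) the largest, and a summed level from 18.9 to 19.4 over the 4 groups. Their part in the Lpl and Lrp1 values was not tested.

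The other markers were read in the same comparison. Among adipocyte markers, 4 were tested. Lep differed by 0.20. No difference is given for Cfd, well above background on 5 of 12 arrays, or for Plin1 and Retn, which were so on none. The largest differences among fibroblast markers were those of Pdgfra (0.45), Lum (0.43) and Col1a1 (-0.22). Smooth muscle Myh11, Tagln and Cnn1 differed by -0.15, -0.08 and 0.07, and red cell Alas2, Hbb-b1 and Hba-a1 by -0.23, 0.19 and 0.01. The Myh11 average joined values of opposite sign, -0.83 for D against C and 0.53 for D + P against C + P. Among genes that mark atrial muscle, Nppa differed by 1.22 (adjusted p = 0.0550 by limma), whereas Myl4 differed by -0.31. Myl7 was well above background on 4 arrays, 1 in each group, and no difference is given for it. Sln was not well above background on any array. No marker gene passed the threshold.

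The wider pathway was read from lists. Of 16 tested partners of lipoprotein lipase, which include apolipoproteins, proteoglycans that hold the enzyme and proteases that cleave it, none passed for diabetes averaged over pargyline. The median was -0.02, with 7 higher and 9 lower, and all tested probes had a median of -0.01. These counts include Sdc1, a surface proteoglycan that was well above background on no array and for which no difference is given, and Hpse and Pcsk5, which were so on 1 and 2 of 12 arrays. Apoc1, an inhibitory apolipoprotein well above background on 9 arrays, differed by -0.34, and Angptl8, a relative of Angptl4 named Gm6484 on the array, by 0.32. The Angptl8 difference was 0.73 ± 0.20 between D and C (adjusted p = 0.315) and -0.09 between D + P and C + P. Angptl6, another angiopoietin-like gene, differed by 0.05.

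None of 11 tested genes of the LDL receptor family and its regulators passed, and their median was -0.08. Sorl1 (-0.51), Mylip (0.25) and Lrp5 (0.18) differed most. Of 14 tested genes of fatty acid uptake and activation, 11 were higher and 3 lower, with a median of 0.15, and none passed. The fatty acid transporter Slc27a1 differed by 0.60 and the acyl-CoA synthetase Acsl6 by -0.55. Only 6 of the 12 arrays, none of them C, gave the acyl-CoA synthetase Acsl3 well above background, and no difference is given for it. Fabp4, a fatty acid binding protein of capillary endothelium and fat cells, was wholly higher in D than in C and in D + P than in C + P, as were 1.21% of all tested probes. It differed by 0.45 and 0.65 (averaged 0.55, adjusted p = 0.244).

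Most of the listed PPAR targets other than Angptl4 were higher. The list was chosen with earlier results of these data known, so that its counts and p values describe it and are no independent test. Members of the list, such as Pdk4 and Mlycd, are also among the 10 genes that followed Angptl4 most closely. Of 20 tested genes, 19 were higher and 1 was lower for diabetes averaged over pargyline, and the median was 0.48, against -0.01 for all tested probes. Of these, 2 rose past the threshold and none fell. Acot1, a cytosolic acyl-CoA thioesterase, was among those that rose, by 1.75 ± 0.25 (adjusted p = 0.0423 by limma). Pdk4, a kinase that shuts off pyruvate dehydrogenase, differed by 1.74 ± 0.31 (adjusted p = 0.0766). A further 12 of the 20 tested genes had an unadjusted p under 0.05 besides the 2 that passed, all in the same direction, as did 5.93% of all tested probes. D lay wholly above C for 12 genes and D + P wholly above C + P for 12, where the background was 11.9% and 7.3%. For D + P against D the list had a median of -0.01, with 10 higher and 10 lower. With 1 array left out, none of these genes passed in 10 of the 12 fits. In those 10 fits between 3 and 10 of all tested probes passed, against 33 with every array.

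**Figure D5:**
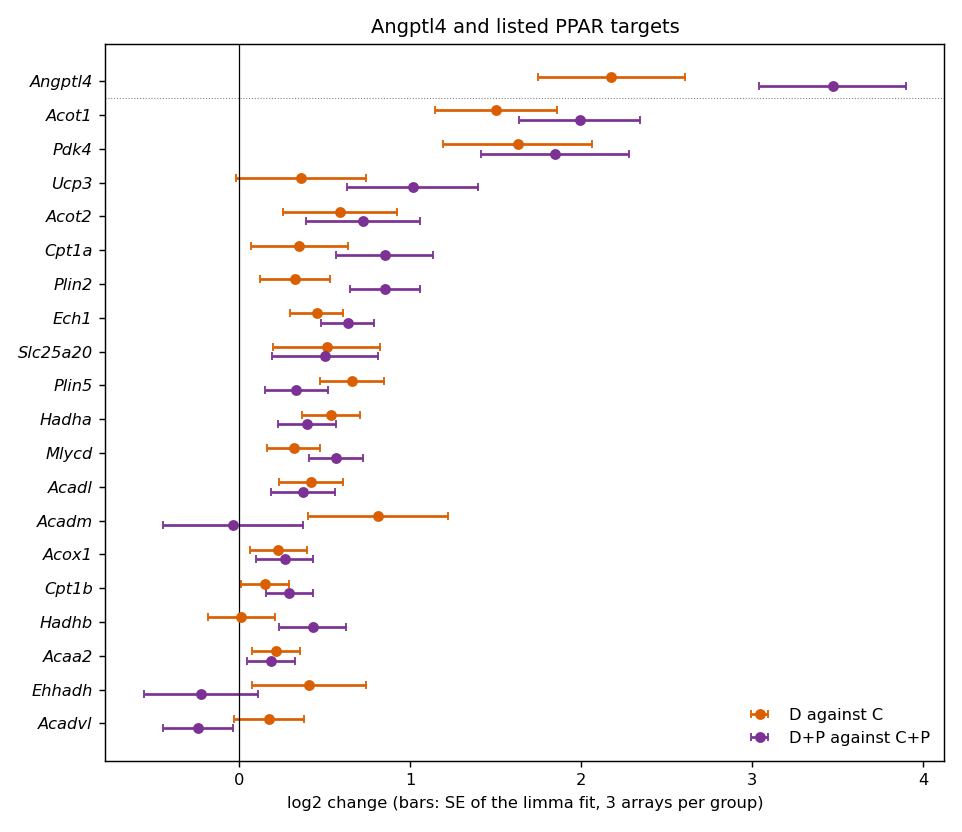
Log2 change with SE for D against C and for D + P against C + P, with Angptl4 at the top and 19 of the 20 tested PPAR targets below it in the order of their averaged difference. Of those drawn, Acot1 and Pdk4 lie closest to Angptl4, and Acadvl at the bottom is the gene with an averaged difference below 0.

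Angptl4 is also known to respond to glucocorticoids and to hypoxia, and targets of both were read for diabetes averaged over pargyline. Of 10 tested glucocorticoid targets none passed, with a median of -0.08 and Errfi1 (-0.56), Zbtb16 (-0.25) and Per1 (-0.23) the largest. Of 10 hypoxia targets none passed either, with a median of -0.03 and Vegfa (-0.53), Bnip3 (0.40) and Adm (0.13) the largest. Some members had values of opposite sign without and with pargyline. Errfi1 differed by 0.21 for D against C and by -1.34 for D + P against C + P, and Egln3 by 0.52 and -0.73, and these genes were picked after their values were seen. The part of glucocorticoids or hypoxia in the Angptl4 values was not tested.

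The genes whose signal followed Angptl4 most closely were sought among 16539 named genes over the 12 arrays. Among the 10 closest were Pvrl2 (r = 0.96), 4833417J20Rik (0.94), Epor (0.94), Gsn (0.93), P3h4 (0.93), Ccni (0.93), Txnip (0.92), Mlycd (0.92) and Pdk4 (0.92). All are described without a test, since Angptl4 was itself chosen for its difference between the groups. After subtraction of the group means, r ranged from 0.52 for Txnip to 0.84 for 4833417J20Rik. The points share arrays, slides and normalisation. Pvrl2, a cell adhesion protein, gave 8.48, 8.49 and 8.41 in C, 8.29, 8.53 and 8.36 in C + P, 8.88, 9.04 and 8.87 in D, and 8.78, 9.15 and 9.12 in D + P. Like Angptl4, it was highest in replicate 2 within C, C + P and D. Epor, the erythropoietin receptor, was 0.79 ± 0.12 higher in diabetic hearts, and Txnip, which restrains thioredoxin and glucose uptake, 1.35 ± 0.20.

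Within the system, no gene tracked Angptl4 as closely. The correlation with Angptl4 was 0.69 for Angptl2, which was near background, 0.43 for Gpihbp1, 0.39 for Lrp1, 0.22 for Vldlr, -0.01 for Lmf2, -0.04 for Lpl and -0.51 for Lmf1. After subtraction of the group means these values were 0.26, 0.30, -0.68, 0.47, 0.30, -0.37 and -0.42 in the same order, so that the sign for Lrp1 and for Lmf2 turned. The brightest Lpl probe was followed most closely by Rtcb (r = 0.97), Eml2 (0.96) and Med30 (0.96). For these genes r was 0.97, 0.96 and 0.97 after subtraction of the group means, so that it rested on differences between hearts of the same group.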

How the data were processed

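Cy3-labelled RNA (200 ng per heart) was hybridised by the authors to single-channel Agilent mouse arrays. The deposited files give spot intensity on a linear scale, background-subtracted by Feature Extraction (12.0.0.7 per the file headers) and not normalised between arrays. The deposited series table holds intensity that the authors quantile normalised, used here as an alternative.

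Intensity was log2 transformed and quantile normalised over the 12 arrays without control spots. Outlier spots (0.230%) were set to missing and repeated spots averaged. Probes entered the test if the scanner software flagged them positive and significant on 50% or more of each group's arrays, which left 30859 of 56605 probes. Values failing this flag (2.03%) were kept, whereas the study set them to missing. Groups came from the labels. The fit used limma 3.58.1 under R 4.3.3 (data.table package, version 1.17.8), with 1 mean per group, 8 residual and 2.62 prior degrees of freedom, two-sided tests and Benjamini-Hochberg adjustment over all tested probes at 0.05. Summed marker levels add linear signals before log2. The number of arrays limits the precision. Figures were drawn with Python 3.11.15, matplotlib 3.10.9 and pandas 2.3.3. The fit was also run on simulated data, with an outcome that is not reported here.

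The genes and all lists were chosen with earlier results of these data known. Each gene of the set is named by its brightest tested probe. From each list, genes past the threshold for diabetes averaged over pargyline are named and, where fewer than 3 passed, the 3 with the largest absolute difference. Further named are the 10 genes most like Angptl4 and the 3 most like Lpl by Pearson correlation. Genes of these lists that are not reported here are counted but not named. Fabp4 was picked after its values were seen. Alternatives covered scaling, background, filter, missing values, probe choice, source table, array weights, slide, slide column, replicate block, single arrays left out and the t-test of the study. Angptl8 was matched to Gm6484 through RefSeq names of GRCm38.p6. Coordinates are those of the files (mm9).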

Additional observations from a re-analysis of the deposited data

How the results depend on the processing

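The diabetes differences of Angptl4 kept their sign under every alternative tried, from 1.86 to 2.57 for D against C, from 2.94 to 4.02 for D + P against C + P and from 2.47 to 3.1 averaged, and its pargyline and interaction values kept both sign and side of the threshold. No probe of the other genes passed under any alternative, except that array weights called 1 probe, that of Gpihbp1, for C + P against C. The methods' t-test called no probe of the 7 other genes after Bonferroni or Benjamini-Hochberg adjustment. Over all tested probes it called 0 for D against C under either adjustment. It called 1 each for D + P against C + P, C + P against C and D + P against D. With so few calls anywhere, this test says little about the 7 genes. The count of PPAR targets past the threshold, 2, was 0 without the filter on dim probes, 1 with failing values set to missing, 8 with array weights and 0 when the slide column was a block, and ran from 0 to 3 when single arrays were left out. It was 0 without any of C replicates 1 to 3, C + P replicates 1 to 3, D replicates 1 and 2 and D + P replicates 2 and 3, 1 without D replicate 3, and 3 without D + P replicate 1. Over all tested probes the count past the threshold, 33, became 16, 46, 397 and 3 under the 4 settings in the same order, and ran from 3 to 113 when single arrays were left out. The cause was not tested. Means over all tested probes of a gene turned the sign of 12 of 30 values, among them Lpl, Lrp1 and Lmf1 for D against C (to -0.49, -0.29 and 0.14). The cause was not tested. Signal over background limits Angptl2 and Lrp1 probe 2 and, in the lists, Sdc1, Hpse, Pcsk5, Acsl3, Plin1, Retn, Cfd and Myl7.

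Replicate numbers were shared between groups. Deviations of same-numbered arrays correlated at r from -0.20 to 0.20, with 4 of 18 pairs over 0.1. For arrays of different number r ran from -0.19 to 0.21, with 8 of 36 pairs over 0.1. By this measure same-numbered arrays were not more alike, which cannot settle whether the samples were paired. With the replicate number as a block, 0 PPAR targets passed, no probe of the 7 genes besides Angptl4 passed in any comparison, and the adjusted p of Angptl4 by limma was 1.0 for C + P against C, 0.563 for D + P against D and 0.720 for the interaction.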
